A study of Mus musculus with 60 samples.

Results

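The long noncoding RNAs of nuclear bodies and the host transcripts of small nucleolar RNAs (snoRNAs) and microRNAs (miRNAs) were described in mouse whole blood. The members were 10 of the 49315 genes of the deposited count tables, chosen by name and matched by gene ID. Malat1, Neat1 and Kcnq1ot1 are retained in the nucleus, Gas5, Snhg1, Snhg5 and Snhg12 carry snoRNAs, Mir17hg and Dleu2 carry miRNAs, and Pvt1 lies beside Myc. All 10 were measured in all 60 mice and passed the filter of every comparison.

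The mice were male CD2F1 animals, 5 to 6 weeks old at purchase, in 10 groups of 6, each bled once into a PAXgene RNA tube. They received 12 oral doses over 6 days, of vehicle or of BIO 300, a solid dispersion of synthetic genistein, at 50, 100 or 200 mg/kg (Low, Med and High in the labels). Unirradiated mice of all 4 treatments were bled either 24 h after their final dose (Day 0) or 48 h after it (Day 1). Irradiated mice had received vehicle or 200 mg/kg, were exposed to 9.2 Gy of cobalt gamma radiation over the whole body (TBI) on Day 0 and were bled on Day 1, 24 h later. They were exposed in 2 boxes of 6 animals, and the labels and methods do not give the box of a mouse. If each box held 1 treatment, box and treatment among irradiated mice cannot be told apart. No untreated group was included, so every effect of BIO 300 is relative to vehicle. The p-values set differences between groups against the spread between animals within them. Mice shared cages, and the labels and methods do not give the cage of a mouse. Animal number was not a term in any fit, although levels followed odd and even numbers in some groups, as given below for Malat1.

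Malat1 is an abundant nuclear RNA associated with nuclear speckles, where splicing factors are stored. Neat1, transcribed from the neighbouring gene, is the scaffold on which paraspeckles assemble. Kcnq1ot1 is the antisense RNA of the Kcnq1 imprinted domain. Most vertebrate snoRNAs are cut from the introns of host genes. They guide chemical modification of ribosomal and spliceosomal RNA, and the spliced host RNA of Gas5 and of the Snhg genes is a noncoding transcript that is often degraded when translated. Mir17hg is the primary transcript of the miR-17 to miR-92a cluster, which is known for its role in lymphocyte growth and survival and is a target of Myc. Dleu2 carries miR-15a and miR-16-1.

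The RNAs processed from the hosts are short, and they are shown here because the count of a host gene and the count of its small RNAs could not be separated. In GENCODE M21 (GRCm38), 25 snoRNA genes lie inside the host members, 10 in Gas5, 8 in Snhg1, 5 in Snhg12 and 2 in Snhg5. All 25 lie wholly within sequence that the same annotation also counts as host exon, and 24 of them had 0 counts over the 60 mice. The exception was 1 of 2 Snora16a genes of Snhg12, with 138 counts. A box C/D snoRNA is marked by a C box near its 5′ end and a D box near its 3′ end. A TGATGA that starts in the first 15 bases together with a CTGA that starts in the last 14 was found in 16 of the 25 (64.0%), against 20.1% of all 1507 snoRNA genes of the annotation. The search covered the gene's own strand. The sequences below are the pair in Snhg5 and 1 example from each of the other hosts, 5′ to 3′, with TGATGA and CTGA in capitals.
Snord50a, in Snhg5, chr9:88521529-88521600, minus strand: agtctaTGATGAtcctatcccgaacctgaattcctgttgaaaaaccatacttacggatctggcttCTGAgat
Snord50b, in Snhg5, chr9:88521797-88521868, minus strand: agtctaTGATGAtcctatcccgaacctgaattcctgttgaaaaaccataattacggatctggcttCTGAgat
Snord47, in Gas5, chr1:161038082-161038158, plus strand: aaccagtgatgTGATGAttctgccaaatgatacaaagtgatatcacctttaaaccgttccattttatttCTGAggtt
Snord99, in Snhg12, chr4:132310691-132310764, plus strand: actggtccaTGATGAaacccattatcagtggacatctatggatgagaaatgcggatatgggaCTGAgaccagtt
Gm23246, in Snhg1, chr19:8725594-8725660, plus strand: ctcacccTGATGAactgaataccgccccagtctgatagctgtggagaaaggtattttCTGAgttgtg
The Snord50 genes were identical at 71 of 72 bases and differed by the substitution C50A, from Snord50a to Snord50b and counted from 1 at the 5′ end. A read that lies within either gene and does not cover the differing base would be ambiguous between them. Any read within either gene also lies in sequence counted as exon of Snhg5.

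The miRNAs of Mir17hg are shown because its transcript had the largest decreases described below, although no mature miRNA was measured. Its 6 miRNA genes lay inside its exons and had 0 counts. Mature sequences from RefSeq (GRCm38.p6) are given 5′ to 3′ with the seed, bases 2 to 8, in capitals.
miR-17-5p: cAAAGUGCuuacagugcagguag
miR-20a-5p: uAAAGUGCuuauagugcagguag
miR-18a-5p: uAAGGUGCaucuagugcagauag
miR-19a-3p: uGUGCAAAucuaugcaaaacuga
miR-19b-3p: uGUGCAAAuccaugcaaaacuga
miR-92a-3p: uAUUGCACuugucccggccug
miR-15a-5p, of Dleu2: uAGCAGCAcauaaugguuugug
miR-16-5p, of Dleu2: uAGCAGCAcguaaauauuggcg
The seed AAAGUGC was shared by miR-17-5p and miR-20a-5p, GUGCAAA by the miR-19 pair and AGCAGCA by the Dleu2 pair. Mir15a and Mir16-1 lie within the span of Dleu2 and had 275 and 40 counts over the 60 mice.

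The starts of the snoRNA hosts are shown because hosts of this kind are known for 5′ terminal oligopyrimidine (TOP) sequences, a C followed by a run of C or T, which place a transcript under growth-dependent translational control. The windows hold 15 bases before and 15 from the annotated RefSeq start (GRCm38.p6), with the unbroken run of C or T from the start in capitals.
Gas5, chr1:161035151-161035180, plus strand: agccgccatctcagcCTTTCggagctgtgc
Snhg12, chr4:132308663-132308692, plus strand: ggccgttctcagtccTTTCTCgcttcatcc
Snhg1, chr19:8723472-8723501, plus strand: gttgttcttgtcggcCTCatttttccttgt
Snhg5, chr9:88522883-88522912, minus strand: gagctgcggtgaaccgggctcgttctttta
This Gas5 start began with C and a run of 5. A C and a run of at least 5 began 823 of 32851 annotated starts (2.51%). A second annotated Gas5 start, at 161034601, began with G. The Snhg12 run of 6 began with T, the Snhg1 run had 3 bases and the annotated Snhg5 start was a G. An annotated start need not be the start used in blood.

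Counts summed to between 15099415 and 45589415 per mouse (median 24877993.5). In what follows CPM is the count per 1000000 counts of a library whose size was scaled with TMM over all 60 mice, and total-count CPM uses the plain total. These scales differed widely on Day 1 at 100 and 200 mg/kg. Total counts in place of TMM shifted the median log2 fold change of all genes from -0.38 to -1.76 at the 100 mg/kg dose and for 200 mg/kg from -0.48 to -1.96. The corresponding medians were 0.03 and 0.69 at 50 mg/kg on Day 0, and 0.09 and -0.28 after TBI against vehicle on Day 1. Both scales are therefore given, and a change is stated with the scale it holds on. Libraries of 10 mice, all of odd animal number, had over 100 CPM of the liver transcript Alb. The highest were irradiated mice 51 (vehicle, 22000 CPM) and 57 (200 mg/kg, 7630 CPM). Next came vehicle-treated mouse 17 of Day 0 (6320 CPM) and irradiated, vehicle-treated mouse 49 (4290 CPM). In bulk blood, fewer cells of a type and less RNA per cell cannot be told apart.

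The members spanned a wide range of abundance. Malat1 (ENSMUSG00000092341, chromosome 19, 5795690 to 5802672 of GRCm38, minus strand, a single exon block of 6983 bases) was the 31st most counted gene in the median mouse (ranks 10 to 135) and took 0.0785% to 0.694% of a library. Neat1 (ENSMUSG00000092274) is on the same strand at 5824708 to 5845478, with 20771 exonic bases. Kcnq1ot1 (ENSMUSG00000101609) covers 93092 bases of chromosome 7, from 143203458 to 143296549 on the minus strand, and shares 121 exonic bases with Kcnq1 on the other strand. Kcnq1 had 389 counts over the 60 mice, against a median of 1441 counts of Kcnq1ot1 per mouse. Gas5 (ENSMUSG00000053332) lies on chromosome 1, 161034422 to 161038539, plus strand. Snhg1 (ENSMUSG00000108414, 8723475 to 8726443, plus) is on chromosome 19, Snhg5 (ENSMUSG00000097195, 88521050 to 88522929, minus) on chromosome 9 and Snhg12 (ENSMUSG00000086290, 132308623 to 132311024, plus) on chromosome 4. Mir17hg (ENSMUSG00000089726, 115042879 to 115046727, plus) and Dleu2 (ENSMUSG00000097589, 61602839 to 61682373, minus) are on chromosome 14, and Pvt1 (ENSMUSG00000097039, 62037986 to 62378096, plus) on chromosome 15. Dleu2 shares 352 exonic bases with Gm26916 on the other strand, which had 0 counts, and Pvt1 shares 109 with the pseudogene H2afy3, which had 186 counts over the 60 mice. If the counting did not use strand, reads of such shared bases could not be assigned.

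Exon here means any base in an exon of an annotated transcript. That covers the whole span of Snhg1 (2969 bases) and of Snhg12 (2402 bases), and other lengths were not tried. Per kilobase of exon, vehicle-treated mice on Day 1 averaged 454 CPM of Malat1. Gas5 (7.46), Dleu2 (7.45) and Snhg1 (7.19 CPM per kilobase) came next, at levels that lay close together. Neat1 had 2.89, Mir17hg 2.24, Snhg5 2.01 and Snhg12 1.79 CPM per kilobase, and Kcnq1ot1 (0.763) and Pvt1 (0.726) were the lowest.

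**Figure D1:**
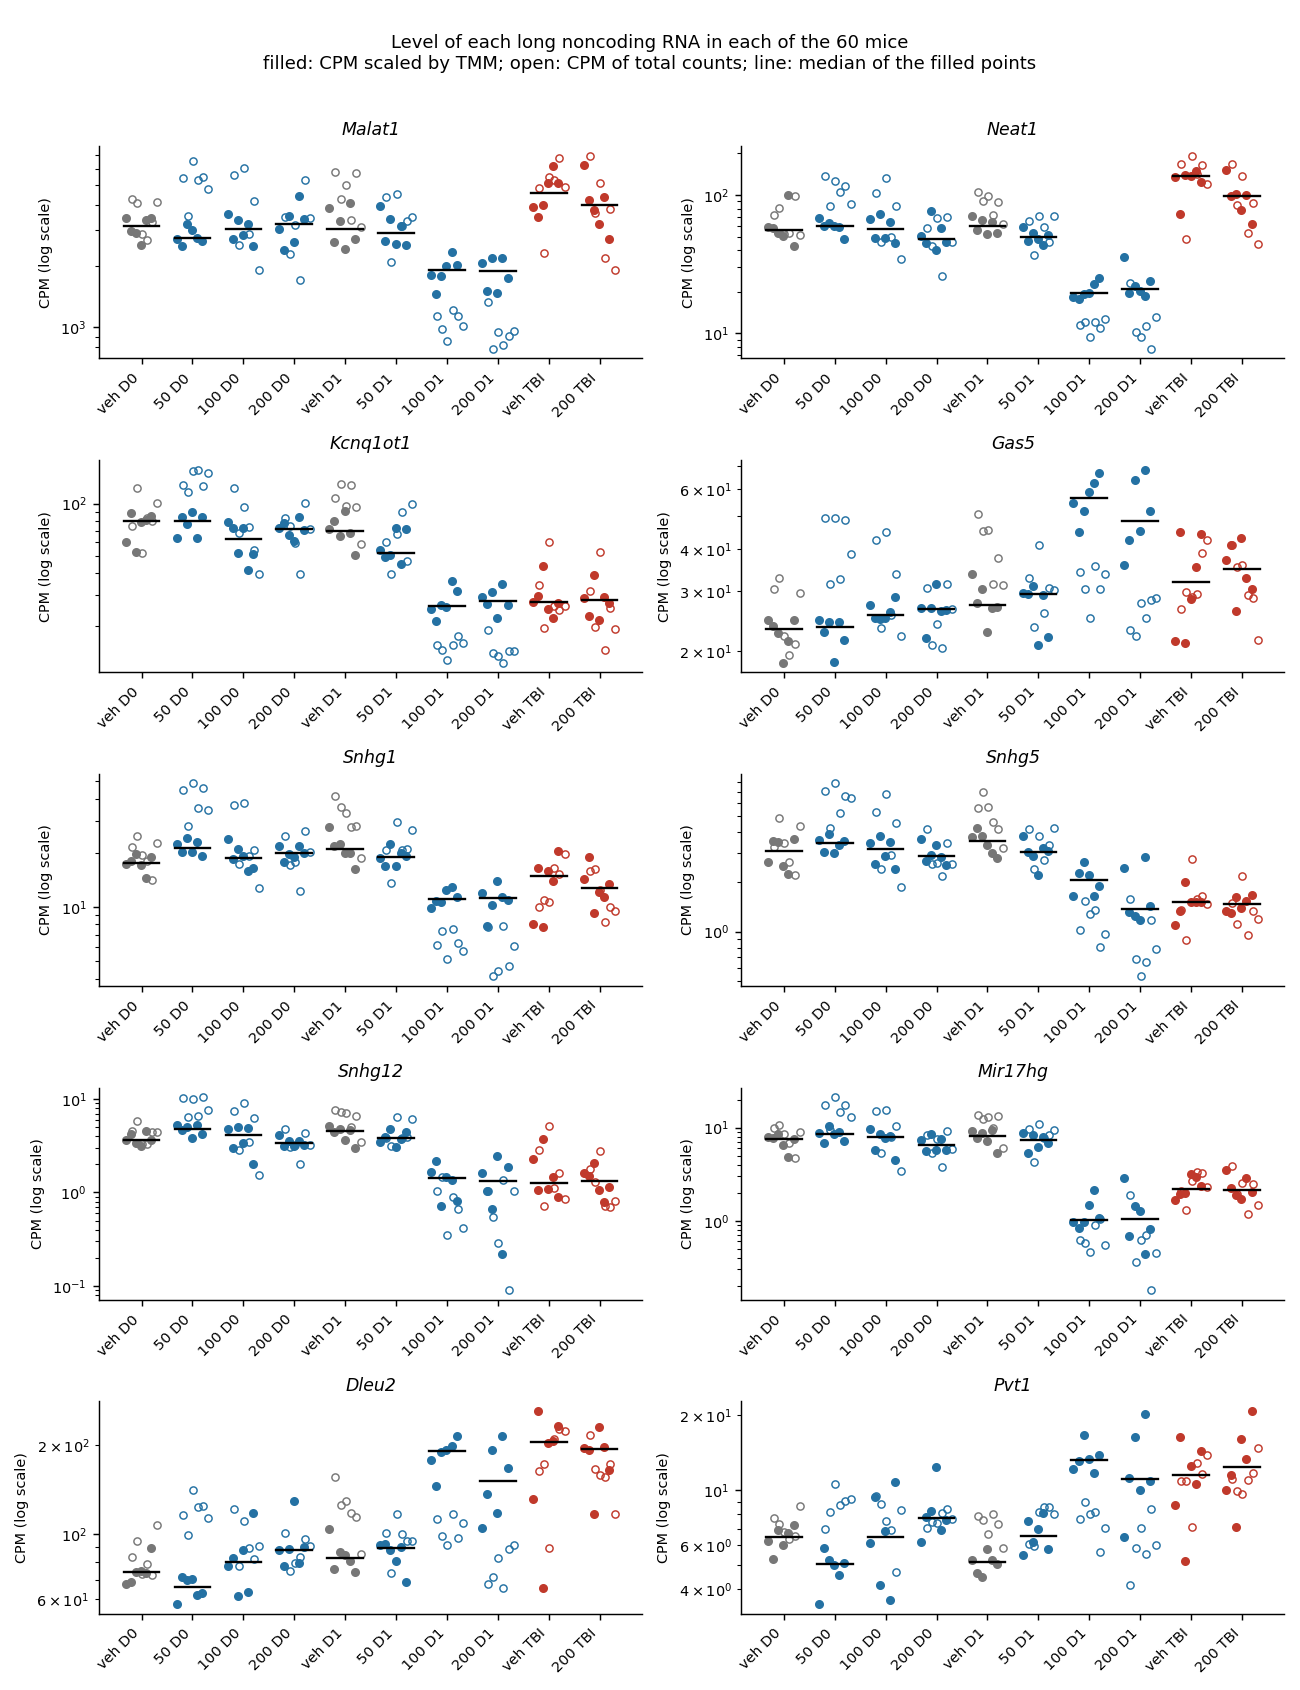
Levels of the 10 members in each of 60 mice by group of 6 (dose in mg/kg or veh for vehicle, D0 and D1 for Day 0 and Day 1), in CPM on a log axis, with filled points for TMM scaling, open points for total counts and a line at the median of the filled points. With TMM, Malat1 lies between 1450 and 2340 CPM at 100 mg/kg on Day 1, below all 6 vehicle-treated mice of that day (2430 to 4070 CPM), while Pvt1 (11.7 to 16.6 against 4.48 to 5.80 CPM) lies above them.

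On Day 0 the members differed little between BIO 300 and vehicle. Malat1 had medians of 2730, 3030 and 3230 CPM at 50, 100 and 200 mg/kg against 3150 CPM with vehicle, and Neat1 medians of 59.9, 56.7 and 47.9 CPM against 55.5 CPM, with overlapping ranges. Snhg1 at 50 mg/kg was the exception, with 19.2, 21.3 and 24.0 CPM (lowest, median, highest) against 14.5, 17.6 and 19.7 CPM with vehicle. The ranges overlapped, and the log2 fold change of 0.30 (SE 0.09) passed the test (edgeR's quasi-likelihood test, Benjamini-Hochberg adjusted p = 0.0386), in a comparison where 14.1% of 24485 genes did (4.21% higher, 9.87% lower). Pvt1, at 3.49, 5.05 and 5.87 CPM against 5.28, 6.46 and 7.22 CPM, had a log2 fold change of -0.38 (SE 0.12, adjusted p = 0.0544) and was called by DESeq2, which called 2 members, Snhg1 and Pvt1, and 17.6% of genes. Leaving out any of 7 single mice (1 to 5 of the 50 mg/kg group, 13 and 16 of the vehicle group) ended the Snhg1 call, with log2 fold changes of 0.26 to 0.32, as did leaving out the mice over 100 CPM of Alb (0.23, adjusted p = 0.08) and a single edgeR fit of all 60 mice (0.29, adjusted p = 0.38). Beside this change, all 7 platelet genes and 4 of 8 red cell genes were lower with TMM (summed medians 1340 against 3050 CPM and 42800 against 145000 CPM), and 4 of 8 B cell genes were higher (1330 against 1040 CPM). With total counts 0 platelet and 4 red cell genes were lower and 8 B cell genes higher. The median share of counts on the noncoding gene Gm26917 was 11.8% against 6.64%, and the part of these shifts was not tested. Scaled by total counts, 9 members were called higher at 50 mg/kg, when 49.4% of all genes were (53.0% called, 3.61% lower).

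At 100 and 200 mg/kg on Day 0, edgeR called 0 of the 10 members and 0.0% of 24000 and 23795 genes. DESeq2 also called 0 members at both doses, with 0.0208% and 0.0168% of genes. Gas5 alone at 100 mg/kg, and Gas5, Snhg1, Dleu2 and Pvt1 at 200 mg/kg, had an unadjusted p under 0.05, as did 726 of 24000 and 2146 of 23795 genes. Gas5 was 24.8, 25.6 and 28.9 CPM at 100 mg/kg, just above all 6 vehicle-treated mice (18.5, 23.2 and 24.7 CPM), when 0.188% of genes did not overlap, with a log2 fold change of 0.23 (SE 0.08, adjusted p = 1.0). The log2 fold changes at 200 mg/kg lay between -0.19 (Neat1) and 0.38 (Pvt1).

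At 50 mg/kg on Day 1, edgeR called 0 members and 0.00829% of 24118 genes. Neat1 (-0.25, SE 0.09) and Pvt1 (0.40, SE 0.11) had an unadjusted p under 0.05, as did 4458 genes, and DESeq2 called Pvt1 higher when it called 5.17% of genes. Pvt1 was 5.50, 6.56 and 8.12 CPM against 4.48, 5.14 and 5.80 CPM with vehicle, and the ranges overlapped. Between vehicle-treated mice of Day 1 and Day 0, edgeR called 0 members and 0.0% of 24375 genes, with an unadjusted p under 0.05 for Gas5, Snhg1 and Pvt1 and for 3007 genes in all. DESeq2 called Pvt1 lower on Day 1 (edgeR log2 fold change -0.34, SE 0.10), among 3.19% of genes.

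On Day 1 at 100 and 200 mg/kg all 10 members differed from vehicle on the TMM scale. The 3 nuclear RNAs, Snhg1, Snhg5, Snhg12 and Mir17hg were lower, and Gas5, Dleu2 and Pvt1 were higher, the latter 3 on that scale only. The same 6 vehicle-treated mice served both doses, so the doses do not repeat each other independently. EdgeR called 65.6% of 23699 genes at 100 mg/kg (25.0% higher, 40.6% lower) and 63.5% of 23513 at 200 mg/kg (23.6% higher, 39.9% lower). The members' 10 of 10 at each dose, 3 higher and 7 lower, are read against those shares. With total counts 0 members were higher and 8 lower at 100 mg/kg, among 76.3% of genes called (7.72% higher, 68.5% lower), and 0 were higher and 9 lower for 200 mg/kg, among 77.8% (6.63% higher, 71.2% lower). Treated and vehicle-treated mice did not overlap for 10 members at 100 mg/kg, when 47.6% of genes did not, and for 9 members, all except Snhg5, at 200 mg/kg, when 47.0% did not.

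Malat1 was 2430, 3030 and 4070 CPM with vehicle and 1450, 1910 and 2340 CPM at 100 mg/kg. In total-count CPM it was 3120, 4640 and 5760 with vehicle and 862, 1080 and 1220 at 100 mg/kg. All 6 treated mice were below all 6 vehicle-treated mice on both scales, and the log2 fold change was -0.68 (SE 0.19, adjusted p = 0.00715) with TMM and -2.10 with total counts. With 200 mg/kg it was 1470, 1900 and 2200 CPM, a log2 fold change of -0.70 (SE 0.19, adjusted p = 0.00493) and -2.25 with total counts. The TMM changes lay near the middle of all genes tested, at percentiles 43 and 44. Vehicle-treated mice 25, 27 and 29 had 3840, 3340 and 4070 CPM, and mice 26, 28 and 30 had 2630, 2430 and 2710 CPM. At 200 mg/kg mice 43, 45 and 47 were likewise above mice 44, 46 and 48, while at 100 mg/kg odd and even mice overlapped. The part of this split was not tested.

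Neat1 was 52.1, 59.7 and 70.1 CPM with vehicle and 17.7, 19.6 and 25.1 CPM at 100 mg/kg. That is a log2 fold change of -1.49 (SE 0.11, adjusted p = 6.13e-08), and -2.91 with total counts. At 200 mg/kg it was 18.6, 21.1 and 35.9 CPM (-1.29, SE 0.15, adjusted p = 4.42e-06). The highest value was that of mouse 43, and the other 5 mice were at 23.8 CPM or below, so that no treated mouse reached a vehicle-treated one. Kcnq1ot1 was 51.1, 69.6 and 91.2 CPM with vehicle, 21.5, 26.1 and 36.2 CPM at 100 mg/kg and 22.3, 28.0 and 34.8 CPM at 200 mg/kg. Its log2 fold changes of -1.30 (SE 0.14) and -1.25 (SE 0.14) were again without overlap, and were -2.73 and -2.81 with total counts.

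The 4 snoRNA hosts did not move together on the TMM scale. Gas5 was 22.7, 27.3 and 33.8 CPM with vehicle, 44.8, 56.5 and 66.7 CPM at 100 mg/kg and 35.8, 48.4 and 68.3 CPM at 200 mg/kg. Both doses lay above vehicle without overlap, with log2 fold changes of 1.07 (SE 0.11, adjusted p = 1.54e-06) and 0.94 (SE 0.15, adjusted p = 9.18e-05), but with total counts Gas5 was lower at both, by -0.35 (adjusted p = 0.036) and -0.64 (adjusted p = 0.000748). Snhg1 was 16.3, 21.0 and 27.7 CPM with vehicle, 9.83, 11.0 and 12.9 CPM at 100 mg/kg and 7.85, 11.1 and 14.0 CPM at 200 mg/kg. It was thus lower in all 12 treated mice than in any vehicle-treated mouse, by -0.86 (SE 0.12) and -0.88 (SE 0.15) with TMM and by -2.28 and -2.41 with total counts.

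Snhg5 and Snhg12 were weakly expressed. Snhg5 was 2.79, 3.52 and 4.25 CPM with vehicle, 1.64, 2.06 and 2.64 CPM at 100 mg/kg (-0.71, SE 0.19, adjusted p = 0.00415) and 1.17, 1.37 and 2.82 CPM at 200 mg/kg (-0.93, SE 0.25, adjusted p = 0.00504). Mouse 47 of the 200 mg/kg group, with 26 counts, overlapped the vehicle range. Snhg12 was 3.03, 4.58 and 5.14 CPM with vehicle, and its 0.72, 1.42 and 2.18 CPM at 100 mg/kg rested on 6 to 47 counts per mouse. The 0.217, 1.32 and 2.44 CPM at 200 mg/kg rested on 2 to 40 counts. Its log2 fold changes of -1.56 (SE 0.27, adjusted p = 0.000174) and -1.61 (SE 0.39, adjusted p = 0.00225) carry the larger errors of such counts.

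Mir17hg, the miR-17 to miR-92a host, had the largest decrease of the 10 members. It was 5.29, 8.23 and 9.39 CPM with vehicle, 0.844, 1.03 and 2.14 CPM at 100 mg/kg (8 to 44 counts) and 0.434, 1.04 and 2.91 CPM at 200 mg/kg (4 to 72 counts). The groups did not overlap, and the log2 fold changes were -2.60 (SE 0.24, adjusted p = 6.02e-07) and -2.54 (SE 0.36, adjusted p = 2.63e-05), or -4.03 and -3.99 with total counts. Both lay at percentile 15 of all genes tested. Mouse 43 had the highest value at 200 mg/kg here as well, 2.91 CPM.

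Dleu2 was 74.3, 83.0 and 104 CPM with vehicle, 145, 191 and 215 CPM at 100 mg/kg and 105, 151 and 214 CPM at 200 mg/kg. The lowest treated value, 105 CPM in mouse 43, was just above the highest vehicle value. Its log2 fold changes of 1.20 (SE 0.11, adjusted p = 3.31e-07) and 0.95 (SE 0.16, adjusted p = 0.000159) with TMM turned to -0.22 (adjusted p = 0.144) and -0.64 (adjusted p = 0.000812) with total counts. Pvt1 was 4.48, 5.14 and 5.80 CPM with vehicle, 11.7, 13.3 and 16.6 CPM at 100 mg/kg and 6.46, 11.0 and 20.3 CPM at 200 mg/kg. It rose by 1.47 (SE 0.11, adjusted p = 1.1e-07) and 1.36 (SE 0.22, adjusted p = 0.000101) on the log2 scale with TMM, but its total-count values of 0.07 (adjusted p = 0.704) and -0.23 (adjusted p = 0.267) were not called. Myc, the protein-coding neighbour of Pvt1, was lower, by -1.41 (SE 0.17) and -1.39 (SE 0.16) with TMM. On the strand opposite Dleu2, Trim13 lies partly and Kcnrg wholly within its span, and neither shares an exonic base with it. Trim13 and Kcnrg were also lower at both doses with TMM (-1.98 and -2.55 at 100 mg/kg, -1.41 and -2.11 at 200 mg/kg).

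**Figure D2:**
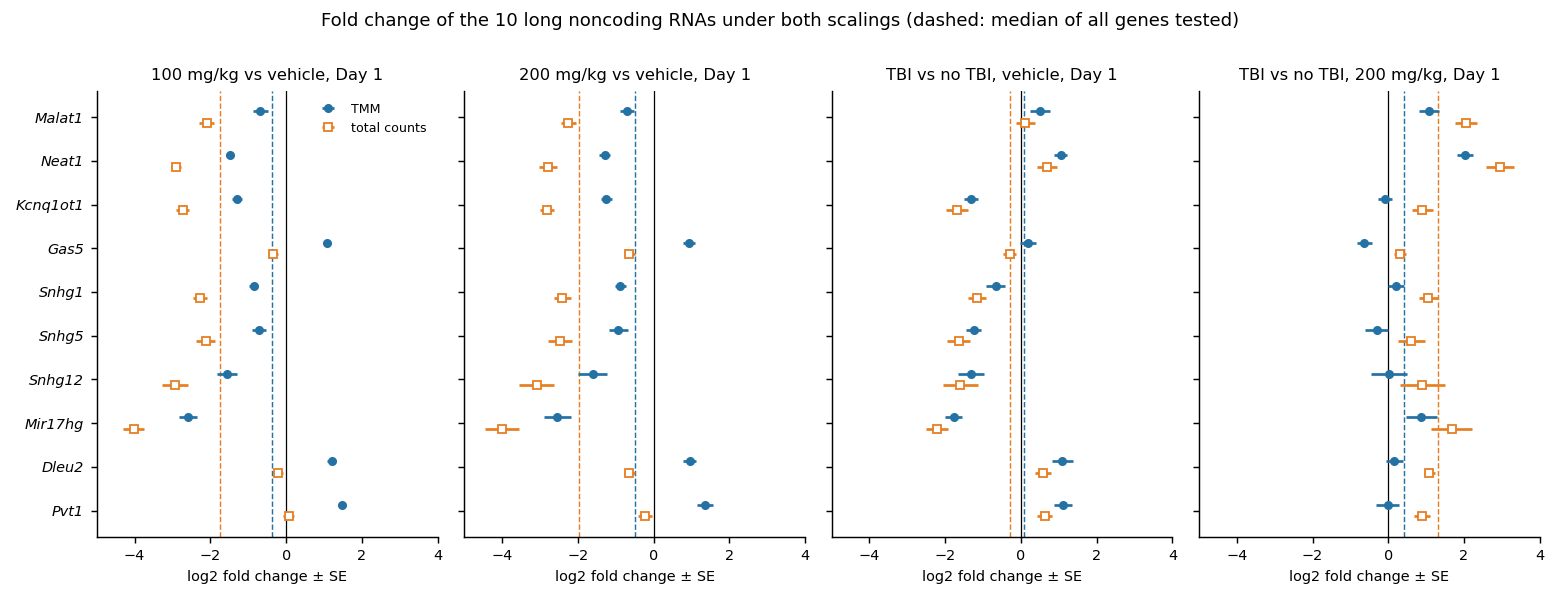
Log2 fold changes of the 10 members with bars of 1 standard error in 4 comparisons, with TMM scaling and with total counts, and the median of all genes on each scale as a vertical line. At 100 mg/kg on Day 1, Gas5 is at 1.07 with TMM and -0.35 with total counts, whereas Mir17hg is on the same side of 0 on both scales (-2.60 and -4.03).

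Whether the BIO 300 effect differed between Day 1 and Day 0 was tested as an interaction over 24 mice. At 100 mg/kg edgeR called 9 members (3 higher, 6 lower), when it called 54.2% of genes (20.7% higher, 33.5% lower), and at 200 mg/kg 10 members (3 higher, 7 lower), when it called 48.8% (18.7% higher, 30.2% lower). Malat1 at 100 mg/kg was the member not called, with a difference of -0.65 (SE 0.28, adjusted p = 0.0524). Mir17hg had the largest differences, -2.64 (SE 0.31) and -2.46 (SE 0.39). The positive differences of Gas5, Dleu2 and Pvt1 held with TMM only, and with total counts those of all 3 were below 0 at both doses. At 50 mg/kg 2 members were called, Snhg1 (-0.45, SE 0.15, adjusted p = 0.0345) and Pvt1 (0.79, SE 0.17, adjusted p = 0.00182), among 17.5% of genes (10.5% higher, 7.04% lower), and Pvt1 was -0.22 with total counts, where 9 members were called, all lower, among 51.9% of genes (48.9% lower).

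A ratio of 2 genes within a library does not depend on the scaling, and each member was therefore also set against Malat1 (log2 ratio of counts, 0.5 added to each). On Day 1, Gas5 averaged -6.80 with vehicle, -5.07 at 100 mg/kg and -5.20 at 200 mg/kg. Dleu2 averaged -5.21 with vehicle, -3.34 at 100 mg/kg and -3.61 at 200 mg/kg. Pvt1 averaged -9.26, -7.13 and -7.28. In each of these 3 ratios all 12 treated mice were above all 6 vehicle-treated mice, so that the counts of Gas5, Dleu2 and Pvt1 rose relative to those of Malat1 whatever the scale. At 100 mg/kg, 3 of the 9 ratios were higher without overlap and 3 were lower (Neat1, Kcnq1ot1 and Mir17hg), when 24.5% of all genes had a higher and 8.52% a lower ratio to Malat1 without overlap. At 200 mg/kg, 3 were higher and 1 was lower (Mir17hg, -8.64 with vehicle and -10.71 with BIO 300), against 23.3% and 6.72% of genes.

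The neighbouring genes Neat1 and Malat1 did not keep their ratio. The log2 ratio of Neat1 to Malat1 averaged -5.70 with vehicle on Day 1, -6.53 at 100 mg/kg and -6.33 at 200 mg/kg. The difference at 100 mg/kg, -0.83, separated all mice of the groups (2-sided exact permutation test, p = 0.00216 and 0.0119 adjusted over 11 pairs of groups, where groups of 6 can give no smaller p). For 200 mg/kg it was -0.63 (2-sided exact permutation test, p = 0.00433, adjusted 0.0159), with overlap. At 50 mg/kg it was -0.21 (2-sided exact permutation test, p = 0.0866, adjusted 0.159), and on Day 0 the adjusted p was 0.426 or above at every dose.

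**Figure D3:**
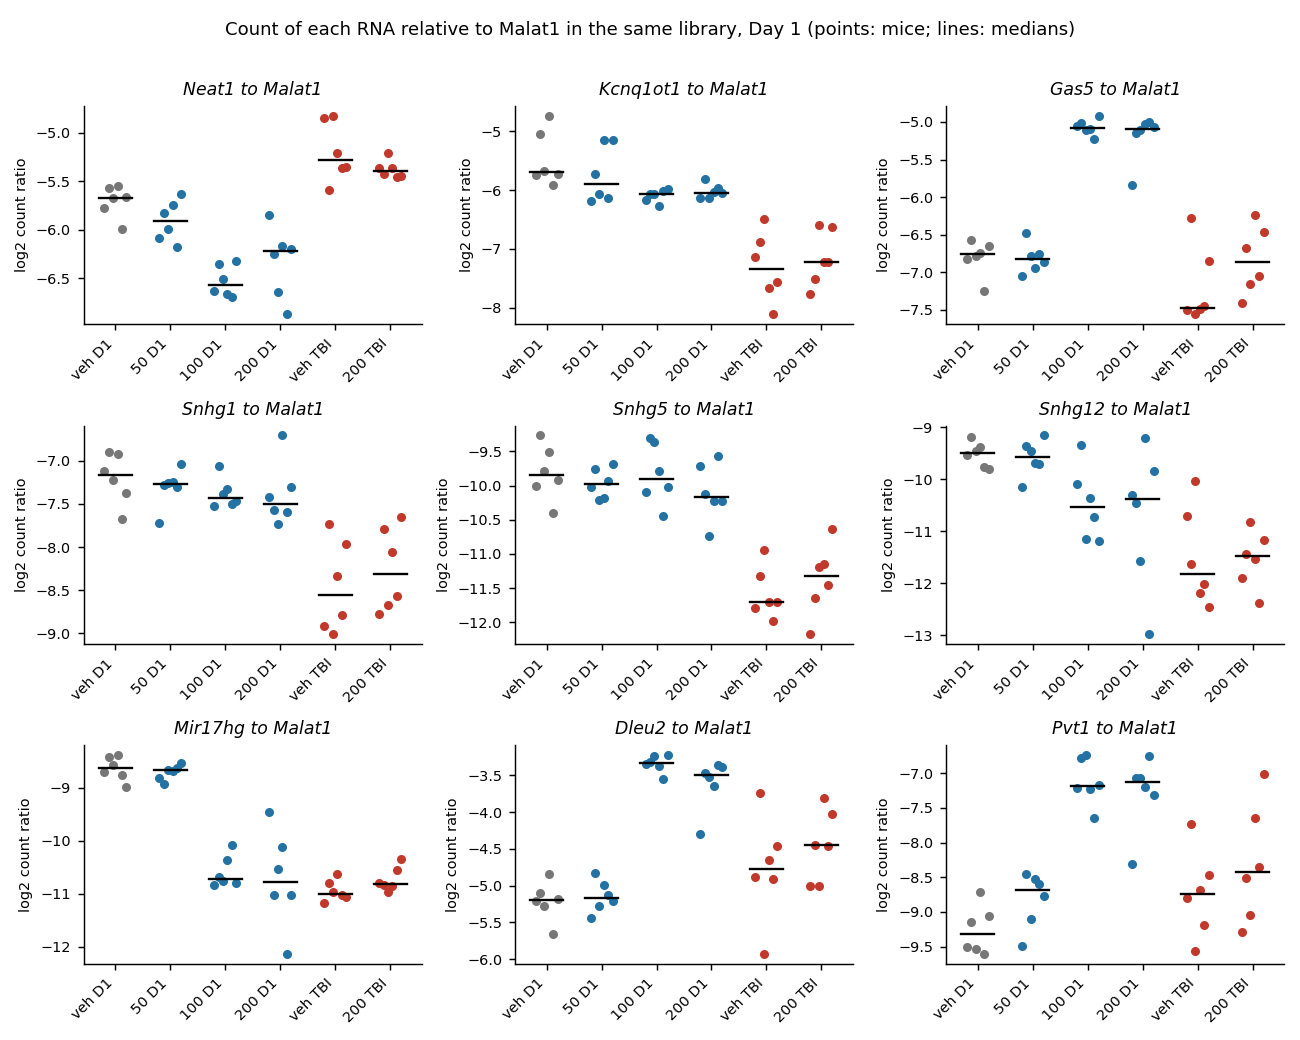
Log2 ratio of the counts of each of the other 9 members to those of Malat1 in each mouse of Day 1, by group, where a point is a mouse and a line the group median. For Gas5, Dleu2 and Pvt1 all 12 mice given 100 or 200 mg/kg without irradiation lie above all 6 vehicle-treated mice, and Mir17hg lies below them in every mouse at these doses.

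The markers of blood cells moved beside these changes at 100 and 200 mg/kg on Day 1. All 8 T cell genes and all 8 B cell genes were lower at both doses on both scales. Their summed levels ranged, for T cells, over 354 to 448 CPM with vehicle, 77.7 to 164 CPM with 100 mg/kg and 47.9 to 198 CPM with 200 mg/kg. For B cells the ranges were 862 to 1330, 238 to 582 and 138 to 468 CPM. All 7 platelet genes were higher on both scales, with sums of 1760 to 3550 CPM with vehicle and of 13400 to 29400 and 12800 to 22400 CPM with BIO 300. All 8 red cell genes were higher with TMM, and 4 and 5 of them with total counts, with sums of 83600 to 131000 CPM with vehicle and 332000 to 610000 and 297000 to 652000 CPM with BIO 300. Monocyte sums were 252 to 396 CPM with vehicle, 101 to 170 CPM with 100 mg/kg, where 5 of 6 genes were lower, and 41.0 to 268 CPM with 200 mg/kg, where 3 were. Of 8 neutrophil genes 3 were higher at each dose with TMM and 0 and 1 lower (434 to 706 CPM with vehicle, 555 to 934 and 431 to 971 CPM with BIO 300), but with total counts 5 and 8 were lower and 0 higher. Of 6 NK cell genes 3 were lower at the lower of these doses and 0 at the higher. No marker of these lists was at 0 throughout a group. The share of counts on Gm26917 was 5.32% to 8.77% with vehicle and 0.134% to 0.454% and 0.0562% to 1.46% at the 2 doses. The part of these shifts in the members' changes was not tested.

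Genes that work with the members were read from fixed lists. At 100 mg/kg, 1 of 14 other snoRNA host genes was higher and 9 were lower (median log2 fold change -1.0, all genes -0.38). At the next dose 1 was higher and 11 were lower (median -1.18, all genes -0.48), and with total counts 12 were lower and 0 higher at each dose. Snhg20 (-2.98, SE 0.24) and Snhg6 (-2.16, SE 0.29) had the largest changes at 100 mg/kg. Of 14 other long noncoding RNAs tested, 3 were higher at each dose, while 8 and 7 were lower (1 higher and 10 lower with total counts). Lncpint, a p53-induced RNA, was at -2.98 (SE 0.19) and -2.81 (SE 0.23). Hotairm1, a myeloid RNA of the HoxA cluster, was at 2.88 (SE 0.21) and 2.78 (SE 0.23), and stayed higher with total counts (1.47 and 1.21).

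Of the 11 paraspeckle proteins, 5 were higher and 5 lower at either dose with TMM. Rbm14 (1.39 and 1.61) and Pspc1 (1.28 and 1.12), both core paraspeckle components, were higher with TMM and were not higher with total counts, where 0 of the 11 were. Of 14 nuclear speckle proteins, 4 were higher and 8 lower with TMM at each dose, and all 14 were lower with total counts. On that scale 68.5% and 71.2% of all genes were lower at these doses. The total-count numbers of every list here are read against those shares. Srrm2, a scaffold protein of the speckle, was at -1.65 (SE 0.14) and -1.57 (SE 0.15). The snoRNP proteins, which form complexes with snoRNAs or assemble them, had 2 of 11 higher at each dose and 7 and 6 lower. With total counts 0 were higher, and 9 and 10 lower. Among the snoRNP proteins, Gar1 was at -1.26 (SE 0.28) and -1.30 (SE 0.24) with TMM. Their assembly factor Shq1 was at 1.52 (SE 0.19) and 1.33 (SE 0.23) with TMM and at 0.10 and -0.25 with total counts. Of 13 translation genes with TOP starts, 5 were higher at each dose with TMM and 1 and 4 were lower, but with total counts 1 was higher and 11 were lower at each. Tpt1 was higher on both scales (2.06 and 2.24 with TMM, 0.65 and 0.67 with total counts). Of 10 factors of nonsense-mediated decay, the pathway that degrades spliced Gas5, 3 were higher and 3 lower with TMM at each dose and 10 were lower with total counts.

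In vehicle-treated mice 24 h after TBI, the members divided differently. Against vehicle on Day 1, Neat1, Dleu2 and Pvt1 were higher (Neat1 with TMM only), Kcnq1ot1, Snhg1, Snhg5, Snhg12 and Mir17hg were lower, and Malat1 and Gas5 did not pass the test. EdgeR called 46.8% of 25146 genes (24.4% higher, 22.4% lower). The groups did not overlap for 4 of the 10 members (Neat1, Kcnq1ot1, Snhg5 and Mir17hg), when 25.1% of genes did not. With total counts, 2 members were called higher and 5 lower, among 42.8% of genes (15.3% higher, 27.5% lower).

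Neat1 was 72.7, 137 and 150 CPM after TBI and 52.1, 59.7 and 70.1 CPM without. The lowest irradiated mouse, 50, was just above the vehicle range and the next was at 125 CPM. The log2 fold change was 1.05 (SE 0.18, adjusted p = 0.000448), and with total counts it was 0.69 (adjusted p = 0.0551) and not called. Malat1 was 3490, 4540 and 6170 CPM against 2430, 3030 and 4070 CPM, with overlap, and its log2 fold change of 0.51 (SE 0.26, adjusted p = 0.118) did not pass the test. DESeq2, which called 48.4% of genes, did call Malat1. The log2 ratio of Neat1 to Malat1 was higher by 0.51 (2-sided exact permutation test, p = 0.00649, adjusted 0.0178), with overlap, and by 0.27 (adjusted p of the exact test 0.0873) without mice 29, 49 and 51, whose libraries held over 100 CPM of Alb.

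Kcnq1ot1 fell in irradiated mice, to 22.4, 27.3 and 44.2 CPM from 51.1, 69.6 and 91.2 CPM. Mouse 51 had the highest value and the other 5 were at 29.6 CPM or below, and the groups did not overlap. The log2 fold change was -1.31 (SE 0.18, adjusted p = 0.000102), or -1.69 with total counts. Kcnq1, on the opposite strand, was at 3.29 with TMM (SE 1.19, adjusted p = 0.0374) in the same comparison. It had only 389 counts over the 60 mice. Against vehicle on Day 0 it was at 1.92 (SE 1.31, adjusted p = 0.276) and not called by edgeR.

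Mir17hg was 1.67, 2.17 and 3.20 CPM after TBI, below all vehicle-treated mice (5.29 to 9.39 CPM), with a log2 fold change of -1.78 (SE 0.22, adjusted p = 5.32e-05), percentile 9 of all genes. With total counts it was -2.21. Snhg5 was 1.09, 1.51 and 2.00 CPM (-1.25, SE 0.19, adjusted p = 0.000242), also without overlap. Snhg12 was 0.89, 1.27 and 3.78 CPM (-1.32, SE 0.34, adjusted p = 0.00702), where mouse 51 with 3.78 CPM and 134 counts lay in the vehicle range. Snhg1 was 7.72, 14.9 and 20.5 CPM and overlapped vehicle, with a log2 fold change of -0.67 (SE 0.25, adjusted p = 0.0414). Its call was lost with DESeq2 (-0.55), with edgeR's filterByExpr filter (-0.56), and without any 1 of mice 49, 51 and 53 of the irradiated or 25 to 29 of the unirradiated group (-0.51 to -0.67). Gas5 was 21.1, 31.8 and 44.9 CPM, with a log2 fold change of 0.18 (SE 0.21, adjusted p = 0.486).

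Dleu2 was 65.3, 205 and 261 CPM after TBI against 74.3, 83.0 and 104 CPM. The lowest value, below the vehicle range, was that of mouse 51 and the next, 131 CPM, that of mouse 49. The log2 fold change was 1.09 (SE 0.28, adjusted p = 0.0065), and 0.58 (adjusted p = 0.0478) with total counts. Pvt1 was 5.21, 11.5 and 16.4 CPM, with mouse 51 lowest, and its log2 fold change was 1.12 (SE 0.24, adjusted p = 0.00234), or 0.63 (adjusted p = 0.0208) with total counts. Without the mice over 100 CPM of Alb, the log2 fold changes were 1.43 for Dleu2 and 1.44 for Pvt1, -1.43 for Kcnq1ot1 and -1.51 for Mir17hg. Malat1 (0.76, adjusted p = 0.0279) and Gas5 (0.46, adjusted p = 0.0261) also passed the test then, and Snhg1 (-0.35, adjusted p = 0.0843) did not.

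Against vehicle on Day 0, the second control of the irradiated mice, edgeR called 4 members higher and 4 lower, with 36.4% of genes called, 19.6% higher and 16.8% lower. With total counts 3 were higher and 3 lower, among 28.6% (14.4% higher, 14.2% lower). Neat1 (1.14, SE 0.23), Dleu2 (1.41, SE 0.30) and Pvt1 (0.93, SE 0.27) were higher, as was Gas5 (0.63, SE 0.23, adjusted p = 0.0496), whose call was lost with total counts (0.33) and without any of 10 single mice (0.40 to 0.66, lowest without mouse 50). Kcnq1ot1 (-1.28, SE 0.17), Snhg5 (-0.94, SE 0.20), Snhg12 (-1.07, SE 0.31) and Mir17hg (-1.52, SE 0.23) were lower. Of these, Snhg12 was not called by edgeR with total counts (-1.07, adjusted p = 0.0981). The same irradiated mice entered both comparisons.

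Set against Malat1, 0 of the 9 members had a higher ratio without overlap after TBI relative to vehicle on Day 1 and 5 a lower one, when 4.9% and 19.0% of genes did. The Kcnq1ot1 ratio averaged -7.31 against -5.48, and that of Mir17hg -10.94 against -8.64. Snhg1 (-8.46 against -7.20), Snhg5 (-11.57 against -9.81) and Snhg12 (-11.51 against -9.52) were the others. The Gas5, Dleu2 and Pvt1 ratios overlapped between these groups, unlike at 100 and 200 mg/kg, and that contrast itself was not tested.

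**Figure D4:**
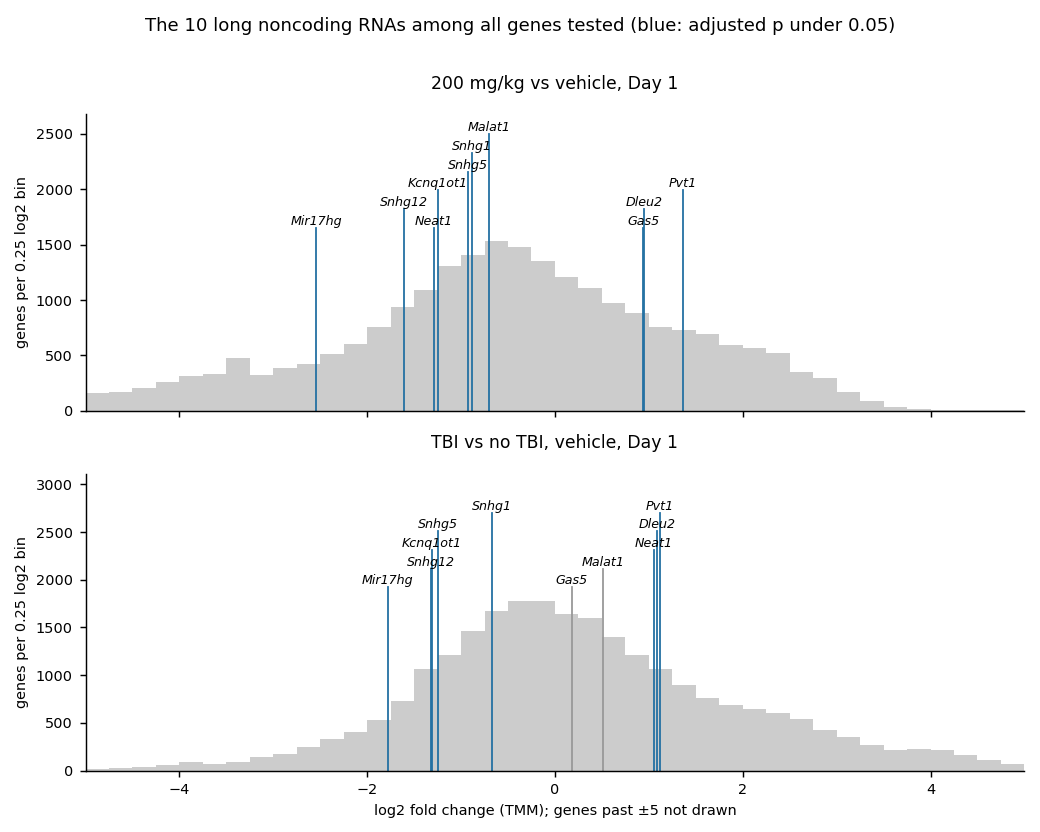
Histograms of the log2 fold changes of all tested genes with TMM scaling, in bins of 0.25, at 200 mg/kg on Day 1 and after TBI in vehicle-treated mice, with a line for each of the 10 members, blue where it passed the test. The members run from Mir17hg (-2.54, percentile 15) to Pvt1 (1.36, percentile 84) at 200 mg/kg and from Mir17hg (-1.78, percentile 9) to Pvt1 (1.12, percentile 73) after TBI.

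Beside these changes, all 8 T cell and all 8 B cell genes were lower after TBI, with summed levels of 27.6 to 116 and 53.8 to 139 CPM, against 354 to 448 and 862 to 1330 CPM in unirradiated, vehicle-treated mice of Day 1. All 8 neutrophil genes were higher (1180 to 6670 against 434 to 706 CPM), as were all 7 platelet genes (3420 to 24800 against 1760 to 3550 CPM), while 0 of 8 red cell genes were called by edgeR with TMM (3 lower with total counts). Their part in the members' changes was not tested. The list counts that follow are with TMM unless total counts are named, where 24.4% of all genes were higher and 22.4% lower. Of 14 other snoRNA hosts, 0 were higher and 7 lower (median -0.77, all genes 0.09). The snoRNP proteins had 9 of 11 lower and 0 higher, with Gar1 at -2.03 (SE 0.45), the scaffold protein Nop56 at -1.83 (SE 0.27) and the methyltransferase Fbl at -1.72 (SE 0.41). The TOP translation genes had 11 of 13 lower and 0 higher, with Npm1 at -1.78 (SE 0.20). Of the 11 paraspeckle proteins, 5 were lower and 0 higher, with Sfpq (-0.98, SE 0.17) and Nono (-0.79, SE 0.15) among the lower. Nuclear speckle proteins had 1 higher and 7 lower of 14, and nonsense-mediated decay factors 0 higher and 4 lower of 10. Of 15 other long noncoding RNAs, 7 were higher and 3 lower (4 and 4 with total counts), and Trp53cor1, a p53 target, was at 4.47 (SE 0.58). Myc was at -1.89 (SE 0.34), while Trim13 (1.11, SE 0.27) and Kcnrg (1.23, SE 0.33) were higher on the TMM scale.

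BIO 300 pretreatment at 200 mg/kg made no detectable difference among irradiated mice. EdgeR called 0 of 10 members and 0.0% of 24916 genes, DESeq2 also called 0 of either, and 0 members and 688 genes had an unadjusted p under 0.05. Neat1 was 62.2, 98.9 and 153 CPM with BIO 300 and 72.7, 137 and 150 CPM with vehicle, a log2 fold change of -0.41 (SE 0.24, adjusted p = 1.0). Malat1 was 2700, 3990 and 6280 CPM against 3490, 4540 and 6170 CPM. The log2 fold changes of the 10 members lay between -0.42 (Snhg12, SE 0.41) and 0.15 (Pvt1, SE 0.30), and all groups overlapped. With standard errors of 0.21 to 0.41 on the log2 scale, small differences were not detectable in groups of 6.

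Irradiated and unirradiated mice given 200 mg/kg differed in 3 members on Day 1, among 27.2% of 23610 genes (17.6% higher, 9.58% lower). Neat1 rose by 2.03 (SE 0.22, adjusted p = 6.27e-05) on the log2 scale, from 18.6, 21.1 and 35.9 CPM to 62.2, 98.9 and 153 CPM without overlap, the largest change of any member in this comparison. Malat1 rose by 1.07 (SE 0.27, adjusted p = 0.00927), also without overlap, when 17.3% of genes did not overlap. Both were higher with total counts too (2.94 and 2.04). The log2 ratio of Neat1 to Malat1 averaged -5.37 against -6.33, a difference of 0.95 that separated all mice (2-sided exact permutation test, p = 0.00216, adjusted 0.0119). Gas5 had a log2 fold change of -0.63 (SE 0.20, adjusted p = 0.0357) with TMM and 0.30 (adjusted p = 0.128) with total counts. Its call was lost with DESeq2 and without any 1 of mice 44 to 48, 55, 57, 59 and 60 (-0.37 to -0.65). Its ratio to Malat1 was lower without overlap (-6.83 against -5.20), as was that of Kcnq1ot1 (-7.16 against -6.02), when 16.1% of genes had a lower and 2.65% a higher ratio without overlap. With total counts 7 members were called higher, when 46.5% of genes were (48.8% called). Beside these changes, 7 of 8 neutrophil genes were higher (summed levels of 1540 to 6150 against 431 to 971 CPM), and all 8 B cell genes (49.8 to 104 against 138 to 468 CPM) and 6 of 8 red cell genes (63900 to 281000 against 297000 to 652000 CPM) were lower with TMM, each without overlap of the sums. With total counts 8 neutrophil genes were higher and 4 B cell and 5 red cell genes lower, and the part of these shifts was not tested.

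The effect of 200 mg/kg on Day 1 differed between irradiated and unirradiated mice for 6 members in the interaction test over 24 mice, when edgeR called 33.9% of genes (21.9% higher, 12.1% lower). With total counts 8 were called, all higher, among 49.5% of genes (46.4% higher). DESeq2 called 9 members, all except Malat1, when it called 34.5% of genes. Mir17hg had the largest difference, 2.75 (SE 0.46, adjusted p = 0.000193), from -2.54 without irradiation and -0.03 with it. Kcnq1ot1 (1.36, SE 0.26), Neat1 (1.10, SE 0.28), Snhg5 (1.07, SE 0.33) and Snhg1 (0.99, SE 0.30) were also positive on both scales. Pvt1 was at -1.0 (SE 0.38, adjusted p = 0.0461) with TMM and 0.25 (adjusted p = 0.459) with total counts.

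Over the 60 mice, the members fell into opposite patterns on the log2(CPM + 1) scale, given as a description, since the mice share groups and the scaling enters every value. Dleu2 and Pvt1 had a Pearson correlation of 0.90 and Malat1 and Neat1 one of 0.89, while Snhg12 had -0.91 with Dleu2 and -0.90 with Pvt1. Among 6738 genes with a mean of at least 10 CPM, the genes most like Malat1 were Rsrp1 (r = 0.92), Ccnl2 (0.91) and Amn1 (0.91). Those most like Neat1 were Atp11a (0.96), Dclre1c (0.95) and Nisch (0.95), and those most like Kcnq1ot1 were N4bp2l2, Phykpl and Chd6 (0.93 each). Dleu2 was most like St3gal6, Tg and Atf2 (0.96 each), Snhg1 like Ms4a6b, Gpr132 and Zufsp (0.86 each) and Gas5 like Dek, Senp6 and Ccar1 (0.93 each). With total-count CPM the correlation of Gas5 with Dek was 0.64 and that of Dleu2 with Tg 0.74, while that of Malat1 with Rsrp1 was 0.98.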

How the data were processed

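Whole blood RNA of 60 mice was sequenced. Before deposit, the authors used Trimmomatic 0.36 for trimming, STAR 2.5.2b for alignment (GRCm38) and Subread 1.5.2 for counts of reads that hit 1 gene. The deposited counts are whole numbers without normalization, in 10 tables of 49315 genes, and the 60 repeated columns of a mouse in another table were identical. The annotation release and strand setting are not given in the sources used here. The labels name poly(A) selection and the methods a stranded total RNA kit with ribosomal and globin depletion, which bears on nuclear RNAs that lack a poly(A) tail. The authors' DESeq2 tables (log2 fold changes, p-values and normalized values) were not used, apart from gene names.

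Mice were grouped by their labels, with doses in mg/kg from the methods. The members and lists were chosen with earlier results of these data known. Each pair of groups (11 pairs) was fitted with edgeR 4.0.16 (quasi-likelihood test, TMM, genes with at least 10 summed counts) under R 4.3.3 (limma 3.58.1), and 4 interactions in fits of 4 groups. A gene was called at a Benjamini-Hochberg adjusted p under 0.05 over all genes tested. The SE is the log2 fold change divided by the square root of F. DESeq2 1.42.0 was the second tool, and the fits were tested on simulated counts. The closest mice of a group differed by a chi-square of 11.99 per gene, well above sampling noise. Named were all members, 3 like genes for each member over 10 CPM, and up to 3 called genes of each list by size of change, and Trim13, Kcnrg and Myc as neighbours. Gene positions are those of GENCODE M21 (48970 of 49315 IDs matched).

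Alternatives were total counts, filterByExpr, no filter, DESeq2, leaving out 47 haemoglobin, mitochondrial and Gm26917 genes, leaving out mice over 100 CPM of Alb, 1 fit of all 60 mice, a pseudocount of 5 for ratios and each mouse left out.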

Additional observations from a re-analysis of the deposited data

Results flagged for a closer look

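In 7 of 100 combinations of a member and a group, 1 mouse stood apart from the other 5 (by Dixon's test of the gap over the range), where chance gives about 1 in 20. For Neat1 these were mouse 17 of the vehicle group on Day 0 (101 CPM, next 58.5), mouse 43 at 200 mg/kg on Day 1 (35.9, next 23.8) and irradiated, vehicle-treated mouse 50 (72.7, next 125). Kcnq1ot1 was 44.2 CPM in irradiated, vehicle-treated mouse 51 (next 29.6). Dleu2 was 89.7 CPM in mouse 18 of the vehicle group on Day 0 (next 74.9) and 129 CPM in mouse 22 at 200 mg/kg on Day 0 (next 90.2), where Pvt1 was 12.4 CPM in the same mouse (next 8.27). Mice 17, 43 and 51 are among those with over 100 CPM of Alb.

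The effect of BIO 300 on a member differed between conditions in 27 interaction tests (edgeR, adjusted p under 0.05). Every member was tested in all 4 interactions. Such differences were common among all genes with TMM. For Day 1 against Day 0, 17.5% of genes were called at 50 mg/kg, 54.2% at 100 mg/kg and 48.8% at 200 mg/kg. For irradiated against unirradiated mice, 33.9% were called. The members' calls are read against those shares. Between Day 1 and Day 0 the differences in log2 fold change at 50 mg/kg were -0.45 for Snhg1 and 0.79 for Pvt1. At 100 mg/kg they were -1.43 for Neat1, -1.03 for Kcnq1ot1, 0.85 for Gas5, -0.98 for Snhg1, -0.76 for Snhg5, -1.61 for Snhg12, -2.64 for Mir17hg, 1.06 for Dleu2 and 1.37 for Pvt1. At 200 mg/kg they were -0.75 for Malat1, -1.08 for Neat1, -1.20 for Kcnq1ot1, 0.71 for Gas5, -1.07 for Snhg1, -0.93 for Snhg5, -1.51 for Snhg12, -2.46 for Mir17hg, 0.65 for Dleu2 and 1.01 for Pvt1. Between irradiated and unirradiated mice they were 1.10 for Neat1, 1.36 for Kcnq1ot1, 0.99 for Snhg1, 1.07 for Snhg5, 2.75 for Mir17hg and -1.0 for Pvt1. All values of Gas5, Dleu2 and Pvt1 among them changed sign with total counts.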

How the results depend on the processing

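With total counts in place of TMM, 49 of 67 called values kept direction and call, 4 lost the call and 14 changed sign. The changed values were those of Gas5 (-0.35 and -0.64 on Day 1 at the 100 and 200 mg/kg doses, 0.30 for irradiated against unirradiated mice at 200 mg/kg, -0.65 and -0.63 for the interactions with day at 100 and 200 mg/kg), Dleu2 (-0.22, -0.64, -0.39 and -0.68 for the same doses and interactions) and Pvt1 (-0.23 at 200 mg/kg, -0.22, -0.01 and -0.32 for the interactions at 50, 100 and 200 mg/kg and 0.25 for that with irradiation). Members called numbered 9 instead of 1 at 50 mg/kg on Day 0, 9 instead of 2 in its interaction and 7 instead of 3 for irradiated against unirradiated mice at 200 mg/kg. At 50 mg/kg on Day 0 the count was 2 with filterByExpr, 2 with DESeq2, 0 without mice over 100 CPM of Alb and 0 in 1 fit of all 60 mice. DESeq2 called 1 member at 50 mg/kg on Day 1 and 1 between vehicle groups, instead of 0. It called 9 members instead of 6 in the interaction with irradiation and 10 instead of 9 in that with day at 100 mg/kg. After TBI against vehicle on Day 0 it called 9 instead of 8. For irradiated against unirradiated mice at 200 mg/kg it called 2 instead of 3. No value changed sign under any other alternative. With each mouse left out, the count of members called was 0 to 2 at 50 mg/kg on Day 0, 10 at 100 and 200 mg/kg on Day 1, 7 to 8 and 7 to 9 after TBI against vehicle on Day 1 and Day 0, 2 to 4 for irradiated against unirradiated mice and 0 elsewhere, and the Neat1 ratio differed in 4 to 5 of 11 pairs of groups. No paired analysis was possible because the labels give each mouse its own number, shared by no other group. Counts of 2 to 72 per mouse limit Snhg12 and Mir17hg at 100 and 200 mg/kg on Day 1.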
